A study of Homo sapiens with 27 samples.

Results

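Cell-of-origin markers are genes whose RNA levels separate the germinal-centre B-cell type of diffuse large B-cell lymphoma (DLBCL) from the activated B-cell type. Here 10 such genes were followed by name among the 27115 genes measured. Of these, 7 mark the germinal-centre type (MME, LMO2, MYBL1, SERPINA9, S1PR2, ASB13 and STAP1) and 3 mark the activated type (CCND2, ENTPD1 and FUT8). All 10 were found in the data. Their levels were compared between 3 DLBCL cell lines and between cells with and without knockdown of SIRT3, a deacetylase of the mitochondrion.

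Germinal-centre B cells divide, mutate their antibody genes and are selected within lymphoid follicles, and germinal-centre type lymphomas keep much of that expression program under the repressor BCL6. Activated-type lymphomas resemble B cells that have started toward the plasma cell, with NF-kappaB signalling and the transcription factor IRF4 switched on. Panels of genes of both kinds are used to assign a tumour to a type.

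RNA was measured in 27 libraries from the established lines Karpas422, OCI-Ly1 and HBL1. In each line, 3 libraries carried a control hairpin with a scrambled sequence (shCTRL), 3 carried a first hairpin against SIRT3 (shSIRT3-1) and 3 carried a second (shSIRT3-2), all on day 8 after delivery. The hairpins were expressed from lentiviral vectors that also carried puromycin resistance and a yellow fluorescent protein. OCI-Ly1 is a line of the germinal-centre type, HBL1 is of the activated type, and Karpas422 belongs to a group of DLBCL defined by oxidative metabolism. Each type was thus represented by a single line, so that type and line cannot be told apart. In these bulk samples fewer cells with a transcript and less transcript per cell cannot be told apart either.

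Levels are given in CPM, read counts scaled to a common library total, with 28694398 to 53405456 reads on genes per library, and 1 read was worth about 0.01 CPM. Fold changes are log2 differences of CPM + 0.1 with their SE, from 3 libraries a group, and a gene was called at a fold above 1.5 (0.585 on the log2 scale) with a Benjamini-Hochberg adjusted p under 0.05 in limma. SIRT3 itself fell with both hairpins in each line, and over the 3 lines by 2.45 ± 0.17 with shSIRT3-1 and by 1.37 ± 0.17 with shSIRT3-2. All 6 B-cell markers examined exceeded 1 CPM in every group. The T-cell gene list summed to between 18.5 and 43.3 CPM in Karpas422 and to at most 0.103 CPM in the other lines. Most of the Karpas422 sum was CD3G, with a mean of 37.9 CPM with shCTRL, beside 1.49 for CD3D, 0.357 for CD3E and 0.006 for CD2. The myeloid list summed to at most 1.24 CPM anywhere. The third HBL1 library with shSIRT3-1 stood apart, with the lowest share of its total on listed genes (40.3%) and discordant CCND2 and SERPINA9 levels, and HBL1 values that move with it are also given without it.

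The first question was whether the markers separated the lines before any knockdown. In the shCTRL libraries, the 3 activated-type genes were all higher in HBL1 than in either other line. Of the 7 germinal-centre genes, MME, MYBL1, S1PR2, ASB13 and STAP1 were lower in HBL1 than in both other lines. SERPINA9 was lower in HBL1 than in Karpas422 and higher in HBL1 than in OCI-Ly1, a call at 1 to 9 reads per OCI-Ly1 library that was lost with a pseudocount of 1 (0.50) or quantile normalization (0.31). The lower level of ASB13 in HBL1 than in OCI-Ly1 was also not called with a pseudocount of 1 (-0.24, adjusted p = 0.0586). LMO2 lay under the minimum level for testing. All 9 members tested were called between HBL1 and Karpas422, where 54.6% of all genes tested were called (25.8% higher and 28.8% lower in HBL1). All 9 were also called between HBL1 and OCI-Ly1, among 54.6% of all genes (29.6% higher and 25% lower). SERPINA9 and ASB13 passed the minimum only through the Karpas422 libraries and CCND2 only with those of HBL1. The minimum itself thus set their difference from the line where they were high. MME and MYBL1 passed with 0 HBL1 libraries at the minimum, so their differences from HBL1 were not free of it either. These counts are therefore a description. With no minimum on the level, 10 of 10 members were called in each comparison, among 42.1% and 42% of genes. The median log2 fold change against Karpas422 was then -5.78 over the 7 germinal-centre members and 4.10 over the 3 activated members, beside 0 over all genes. Against OCI-Ly1 these medians were -2.78, 3.96 and 0.05. Karpas422 and OCI-Ly1 also differed, with 6 of 9 members called where 50.8% of all genes were (28.2% higher and 22.6% lower in Karpas422). MYBL1, SERPINA9, S1PR2 and ASB13 were higher in Karpas422, and MME and FUT8 were higher in OCI-Ly1, although MME missed the threshold with a pseudocount of 0.01 (adjusted p = 0.0534).

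**Figure D1:**
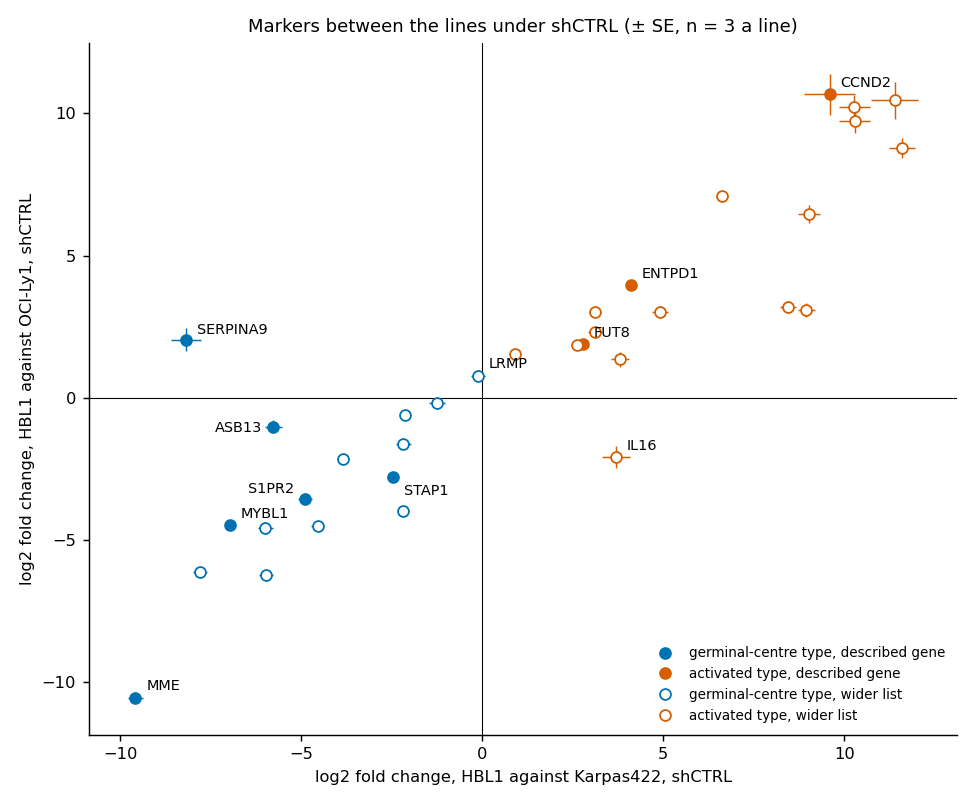
Each point is a gene, with its log2 fold change between HBL1 and Karpas422 on the horizontal axis and between HBL1 and OCI-Ly1 on the vertical axis, both in shCTRL libraries (bars are SE, 3 libraries a line, and both axes share the HBL1 libraries). Filled points are the 9 members tested and open points the wider lists. CCND2 lies at the upper right, MME at the lower left, and SERPINA9, IL16 and LRMP fall in the quadrants where the axes disagree in sign.

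The same separation was examined in wider lists of each type. Among 15 other activated-type genes, all 15 were higher in HBL1 than in Karpas422, and 14 were higher and 1 lower than in OCI-Ly1. The exception was IL16, which encodes a chemoattractant cytokine and was named after its values were seen (-2.09 ± 0.39, adjusted p = 0.000709). Among 10 other germinal-centre genes, 9 were lower in HBL1 than in Karpas422, while against OCI-Ly1 8 were lower and 1, LRMP, was higher (0.78 ± 0.19, adjusted p = 0.00366). Over all genes tested, 25.8% were called higher and 28.8% lower in HBL1 than in Karpas422, and 29.6% and 25% than in OCI-Ly1. BATF, CCDC50, CREB3L2, SH3BP5 and TNFRSF13B passed the minimum level only through the HBL1 libraries, so the minimum set their differences. MAML3 and SSBP2 passed without any HBL1 library at the minimum, so their differences were not free of it either. These counts are therefore a description. The wider lists were drawn from general knowledge of these lymphoma types, with earlier results of these data already known.

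Within a line, the members also differed in level once divided by the length of their exons in kilobases (kb). In Karpas422 shCTRL cells, SERPINA9 had the highest mean at 68.6 ± 37.7 CPM per kb (SD, n = 3), followed by STAP1 at 30.2 ± 4.52, S1PR2 at 22.7 ± 4.27 and MYBL1 at 18.04 ± 0.364 CPM per kb. The libraries of S1PR2 and MYBL1 overlapped on this scale, while those of the other neighbours in the order did not. In OCI-Ly1, STAP1 led at 37.9 ± 5.07 CPM per kb, ahead of MME at 23.5 ± 3.38. CCND2 led by far in HBL1, at 91.6 ± 9.73 CPM per kb, with FUT8 next at 14.2 ± 0.591 and ENTPD1 at 9.69 ± 0.949 CPM per kb. All annotated exons of a gene entered these lengths, so genes with long or rarely used exons, such as ENTPD1, come out low.

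**Figure D2:**
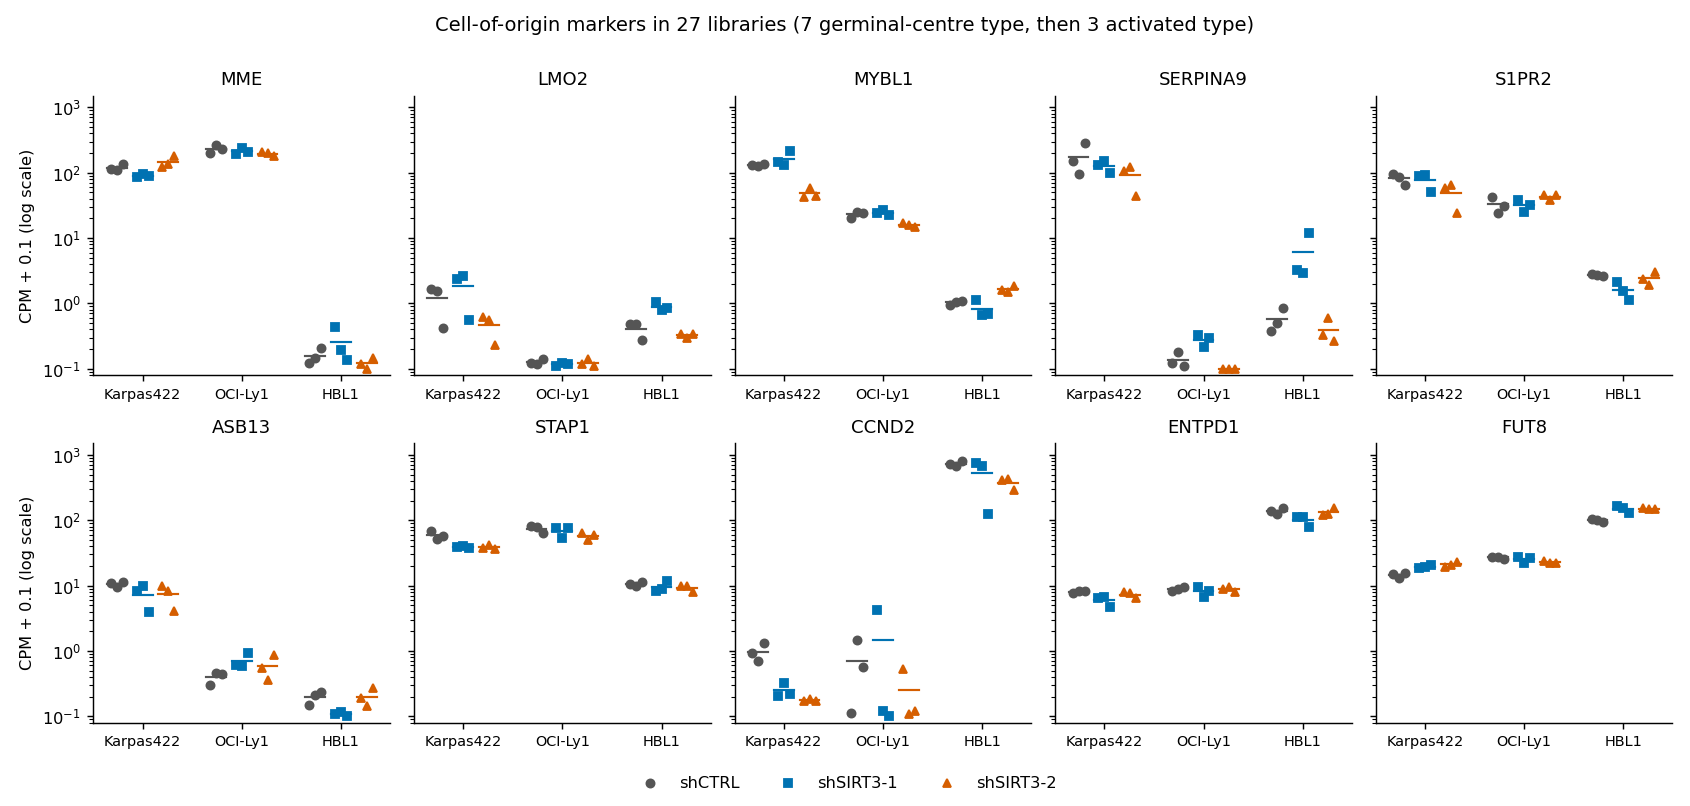
Each panel shows 1 gene, with CPM + 0.1 on a log scale for each of the 27 libraries grouped by line and hairpin, and a short bar at the mean of each group of 3. The germinal-centre genes other than LMO2 and SERPINA9 sit lowest in HBL1, and CCND2, ENTPD1 and FUT8 sit highest there.

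MME (chr3:154741913-154901493, plus strand, hg19) encodes CD10, a membrane peptidase used to recognise germinal-centre B cells. In Karpas422 it was at 114, 110 and 134 CPM with shCTRL, 86.2, 94.1 and 88.4 CPM with shSIRT3-1, and 122, 134 and 182 CPM with shSIRT3-2. All 3 shSIRT3-1 libraries lay below the controls, while the shSIRT3-2 libraries overlapped them. Neither hairpin gave a call against shCTRL (-0.41 ± 0.14, adjusted p = 0.0512 for shSIRT3-1, and 0.27 ± 0.14, adjusted p = 0.17 for shSIRT3-2). The hairpins differed from each other, with shSIRT3-2 higher by 0.68 ± 0.14 (adjusted p = 0.0108), although without the third shSIRT3-2 library the difference was 0.51 and fell under the fold threshold. OCI-Ly1 held 202, 268 and 227 CPM with shCTRL, 194, 238 and 209 CPM with shSIRT3-1, and 205, 203 and 180 CPM with shSIRT3-2, so that all groups overlapped. HBL1 was close to empty of this transcript, with between 0 and 36 reads in each of its 9 libraries.

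MYBL1 (chr8:67474410-67526482, minus strand) encodes a transcription factor of the MYB family that germinal-centre B cells express. Its levels in Karpas422 were 130, 128 and 134 CPM with shCTRL, 145, 131 and 214 CPM with shSIRT3-1, and 42.3, 57.3 and 44.4 CPM with shSIRT3-2. Every shSIRT3-2 library lay far below every other Karpas422 library. The summed B-cell markers were also lowest with shSIRT3-2 in this line, at 945 to 1484 CPM beside 1633 to 2363 CPM with shCTRL, and their part in the result was not tested. The fall against shCTRL was 1.45 ± 0.17 on the log2 scale (adjusted p = 0.000469), whereas shSIRT3-1 gave 0.29 ± 0.17 (adjusted p = 0.227). OCI-Ly1 stood at 20.2, 25.2 and 24.1 CPM with shCTRL, 24.2, 26.7 and 22.4 CPM with shSIRT3-1, and 16.9, 15.6 and 14.7 CPM with shSIRT3-2. The shSIRT3-2 libraries were again the lowest, but the change of -0.55 ± 0.12 (adjusted p = 0.024) stopped short of the fold threshold. HBL1 went the other way, at 0.853, 0.959 and 0.996 CPM with shCTRL, 1.03, 0.566 and 0.594 CPM with shSIRT3-1, and 1.51, 1.38 and 1.72 CPM with shSIRT3-2. There the shSIRT3-2 libraries were the highest, at 0.66 ± 0.23 against shCTRL, with an adjusted p of 0.0545. It was called in 5 of 9 other settings, at 1.26 under quantile normalization (adjusted p = 0.0036), and without the third shSIRT3-1 library (adjusted p = 0.0277) or the first (adjusted p = 0.0262).

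Set against each other, the hairpins gave a call for MYBL1 in each line. With shSIRT3-2 the level was lower than with shSIRT3-1 by 1.74 ± 0.17 in Karpas422 (adjusted p = 0.000756), lower by 0.63 ± 0.12 in OCI-Ly1 (adjusted p = 0.013) and higher by 1.02 ± 0.23 in HBL1 (adjusted p = 0.0102). The OCI-Ly1 call was lost without the first or second shSIRT3-1 library or the third shSIRT3-2 library, and the HBL1 call with a pseudocount of 1 (0.56). The differences between the lines in the response of MYBL1 gave an adjusted p of 1.67e-06 in an F test on the interaction of line and hairpin.

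SERPINA9 (chr14:94929054-94946026, minus strand), also called centerin, encodes a serine protease inhibitor of germinal-centre B cells. Karpas422 held 149, 94.97 and 283 CPM with shCTRL, 132, 149 and 97.1 CPM with shSIRT3-1, and 105, 123 and 43.4 CPM with shSIRT3-2. These groups overlapped and neither hairpin was called. OCI-Ly1, although of the germinal-centre type, was almost without SERPINA9. It gave 2, 9 and 1 reads with shCTRL, 25, 11 and 20 reads with shSIRT3-1, and 0 reads in all 3 shSIRT3-2 libraries. The 56 reads with shSIRT3-1 were at least 18.2-fold higher in CPM than a floor of 3 reads over the shSIRT3-2 group. Tested with no minimum, SERPINA9 was higher there with shSIRT3-1 than with shCTRL (1.03 ± 0.20, adjusted p = 0.0343), in a fit that called 2.12% of genes, and the difference between the hairpins was also called (adjusted p = 0.00951, 2.46% of genes).

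In HBL1, SERPINA9 rose with a single hairpin. It was at 0.274, 0.409 and 0.755 CPM with shCTRL, 3.19, 2.82 and 11.8 CPM with shSIRT3-1, and 0.224, 0.499 and 0.169 CPM with shSIRT3-2. Every shSIRT3-1 library exceeded every other HBL1 library. The change with shSIRT3-1 was 3.15 ± 0.57 (adjusted p = 0.00305), and shSIRT3-2 against shSIRT3-1 gave -3.70 ± 0.57 (adjusted p = 0.00223). SERPINA9 passed the minimum level in HBL1 only through the shSIRT3-1 libraries, so it could not be tested once any of these 3 was left out. The first and second of them were also above all other HBL1 libraries. The level reached was still low beside Karpas422, at 1.82%, 1.61% and 6.72% of its shCTRL mean in the 3 libraries. Over the 3 lines SERPINA9 was the member called with shSIRT3-1 (1.28 ± 0.40, adjusted p = 0.0149), among 13% of all genes called (3.92% higher and 9.09% lower), and this call was lost without the HBL1 libraries (0.34, adjusted p = 0.424) or the OCI-Ly1 libraries (1.40, adjusted p = 0.0667). Without the third HBL1 shSIRT3-1 library it was 0.93 (adjusted p = 0.026).

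LMO2 (chr11:33880122-33913623, minus strand) encodes a transcriptional adaptor that is among the most used markers of the germinal-centre type. Despite that role it was scarce in all 3 lines. Karpas422 had 1.58, 1.44 and 0.316 CPM with shCTRL, 2.25, 2.52 and 0.456 CPM with shSIRT3-1, and 0.524, 0.455 and 0.127 CPM with shSIRT3-2. The third library was the lowest of its group under each hairpin. In Karpas422 no call was made against shCTRL (0.56 ± 0.70, adjusted p = 0.573 for shSIRT3-1, and -1.26 ± 0.70, adjusted p = 0.196 for shSIRT3-2). Nor was shSIRT3-2 called against shSIRT3-1 (-1.82 ± 0.70, adjusted p = 0.0893), although it was with group means of all 27 libraries. With the replicate number as a term in the limma model, shSIRT3-2 was called against shCTRL (adjusted p = 0.00328) and against shSIRT3-1. OCI-Ly1 gave between 1 and 4 reads in every library, too few to compare the hairpins there. HBL1 held 0.376, 0.377 and 0.175 CPM with shCTRL, 0.933, 0.680 and 0.756 CPM with shSIRT3-1, and 0.234, 0.191 and 0.244 CPM with shSIRT3-2. In HBL1 the shSIRT3-1 libraries thus lay above all the others. With no minimum on the level, LMO2 in HBL1 was called with shSIRT3-1 (1.16 ± 0.26, adjusted p = 0.0127), in a fit that called 18.4% of genes. It was then also lower with shSIRT3-2 than with shSIRT3-1 there by 1.46 ± 0.26 (adjusted p = 0.00633, 17.3% of genes called). Between lines without that minimum, LMO2 in shCTRL cells was lower in HBL1 than in Karpas422 (-1.37 ± 0.48, adjusted p = 0.0349, 42.1% of genes called). It was higher in HBL1 than in OCI-Ly1 (1.66 ± 0.48, adjusted p = 0.0144, 42% called) and higher in Karpas422 than in OCI-Ly1 (3.03 ± 0.48, adjusted p = 0.00047, 37.6% called). In the model of all lines LMO2 was lower with shSIRT3-2 than with shSIRT3-1 by 1.06 ± 0.32 (adjusted p = 0.0125). That call was lost with a pseudocount of 1 (-0.48) and without HBL1 (-0.87, adjusted p = 0.172). Neither hairpin was called against shCTRL (0.53 ± 0.32, adjusted p = 0.191, and -0.53 ± 0.32, adjusted p = 0.193).

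S1PR2 (chr19:10332109-10342007, minus strand) encodes a sphingosine 1-phosphate receptor that keeps B cells within the germinal centre. In Karpas422 it was at 95.4, 87.2 and 65.3 CPM with shCTRL, 88.3, 93.7 and 51.1 CPM with shSIRT3-1, and 58.0, 63.6 and 24.4 CPM with shSIRT3-2. All shSIRT3-2 libraries lay below the controls, at -0.86 ± 0.35 (adjusted p = 0.0883), which was called with group means of all 27 libraries (adjusted p = 0.0408). It was also called with the replicate number as a term in the limma model (adjusted p = 0.00436). OCI-Ly1 held 43.1, 24.3 and 31.3 CPM with shCTRL, 37.5, 25.2 and 32.2 CPM with shSIRT3-1, and 44.9, 38.2 and 45.5 CPM with shSIRT3-2. Each SIRT3 hairpin overlapped the controls there, while every shSIRT3-2 library lay above every shSIRT3-1 library. The difference between the hairpins was not called there (0.45 ± 0.21, adjusted p = 0.221). HBL1 stood at 2.74, 2.66 and 2.51 CPM with shCTRL, 2.02, 1.46 and 1.04 CPM with shSIRT3-1, and 2.23, 1.81 and 2.92 CPM with shSIRT3-2. The shSIRT3-1 libraries were below the controls there, and the fall of 0.81 ± 0.25 was called (adjusted p = 0.0313). That call was lost in 4 of 9 other settings and without any of 6 of the 9 libraries, among them the third shSIRT3-1 library, without which the value was -0.59 (adjusted p = 0.052).

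ASB13 (chr10:5680830-5708558, minus strand) encodes a substrate adaptor of a ubiquitin ligase. Karpas422 was the only line with more than 1 CPM, at 11.0, 9.39 and 11.4 CPM with shCTRL, 8.03, 9.67 and 3.78 CPM with shSIRT3-1, and 9.71, 8.19 and 3.97 CPM with shSIRT3-2. The third library was the lowest with each SIRT3 hairpin, the groups overlapped, and neither hairpin was called. OCI-Ly1 ranged from 0.197 to 0.821 CPM and HBL1 from 0 to 0.169 CPM. All shSIRT3-1 libraries of OCI-Ly1 lay above its controls, with 57, 47 and 86 reads beside 19, 42 and 34. With no minimum on the level this rise was not called (0.82 ± 0.35, adjusted p = 0.228). The HBL1 libraries held 5, 7 and 12 reads with shCTRL, 1, 2 and 0 reads with shSIRT3-1, and 9, 5 and 18 reads with shSIRT3-2. The shSIRT3-1 libraries of HBL1 were the lowest. With no minimum on the level they were called against shCTRL (adjusted p = 0.0305) at these few reads, in a fit that called 18.4% of genes.

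STAP1 (chr4:68424445-68473055, plus strand) encodes a signalling adaptor downstream of the B-cell receptor. In Karpas422 it was at 68.6, 51.3 and 57.1 CPM with shCTRL, 38.4, 40.4 and 37.7 CPM with shSIRT3-1, and 37.1, 41.4 and 36.5 CPM with shSIRT3-2. The libraries of both SIRT3 hairpins all lay below the controls. STAP1 fell by 0.59 ± 0.11 with shSIRT3-1 (adjusted p = 0.00359) and by 0.61 ± 0.11 with shSIRT3-2 (adjusted p = 0.00331), both just past the fold threshold. Without the first shCTRL library these values were -0.48 and -0.50 and neither was called, and the shSIRT3-1 call was also lost in 4 of 9 other settings, at -0.52 in edgeR. OCI-Ly1 held 80.1, 79.3 and 62.6 CPM with shCTRL, 74.8, 53.4 and 76.4 CPM with shSIRT3-1, and 63.3, 49.4 and 60.0 CPM with shSIRT3-2. HBL1 held 10.6, 9.89 and 11.3 CPM with shCTRL, 8.28, 8.69 and 11.6 CPM with shSIRT3-1, and 9.70, 9.66 and 7.72 CPM with shSIRT3-2. No call was made in those lines, and over the 3 lines the change was -0.30 ± 0.09 (adjusted p = 0.0146) and -0.40 ± 0.09 (adjusted p = 0.00153), under the fold threshold with each hairpin. Of the 18 knockdown libraries, 15 lay below the mean of the controls of their line.

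CCND2 (chr12:4378937-4414519, plus strand) encodes cyclin D2, which drives entry into the cell cycle. HBL1 expressed it strongly, at 714, 664 and 816 CPM with shCTRL, 758, 677 and 126 CPM with shSIRT3-1, and 407, 426 and 288 CPM with shSIRT3-2. All shSIRT3-2 libraries lay below the controls, whereas with shSIRT3-1 the third library alone was low. The fit of the HBL1 libraries gave -0.86 ± 0.58 with shSIRT3-1 (adjusted p = 0.267) and -0.98 ± 0.58 with shSIRT3-2 (adjusted p = 0.222). Without the third shSIRT3-1 library, shSIRT3-1 gave -0.02 (adjusted p = 0.916) and shSIRT3-2 was called at the same -0.98 (adjusted p = 0.000917), and also against shSIRT3-1 (-0.96, adjusted p = 0.00298). That library was set apart partly by its CCND2 level, so leaving it out narrows the spread of CCND2. These calls are therefore a description.

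Karpas422 held CCND2 at a far lower level, 0.816, 0.607 and 1.198 CPM with shCTRL, 0.107, 0.224 and 0.117 CPM with shSIRT3-1, and 0.0723, 0.0835 and 0.0678 CPM with shSIRT3-2. Both SIRT3 hairpins lay wholly below the controls, with 276 reads over the 3 shCTRL libraries against 46 and 25. These levels were under the minimum for testing. When all genes were tested with no minimum, the falls were 1.95 ± 0.26 (adjusted p = 0.00178) and 2.44 ± 0.26 (adjusted p = 0.000669), in fits that called 9.88% and 9.36% of genes.

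In OCI-Ly1, CCND2 was erratic between libraries, with 0.0103, 1.35 and 0.468 CPM with shCTRL, 4.09, 0.0205 and 0 CPM with shSIRT3-1, and 0.426, 0.0098 and 0.0196 CPM with shSIRT3-2. Other activated-type genes abundant in HBL1 were also detected in some of these libraries. The comparison with CCDC50, TNFRSF13B and CREB3L2 was chosen after their values were seen. In the first shSIRT3-1 library CCND2 was at 0.559% of its mean in HBL1 shCTRL cells, beside 0.616% for CCDC50, 0.959% for TNFRSF13B and 0.480% for CREB3L2. In the second shCTRL library the 4 genes were at 0.185%, 0.246%, 0.215% and 0.139% in the same order. The third shCTRL library differed, since it held 47 reads of CCND2 (0.0640%) beside 1, 2 and 0 reads of the other genes. In Karpas422, CCDC50, TNFRSF13B and CREB3L2 did not exceed 0.0287%, 0.0210% and 0.0391%, while CCND2 reached 0.164%. The part of such low-level signal in the CCND2 results was not tested.

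**Figure D3:**
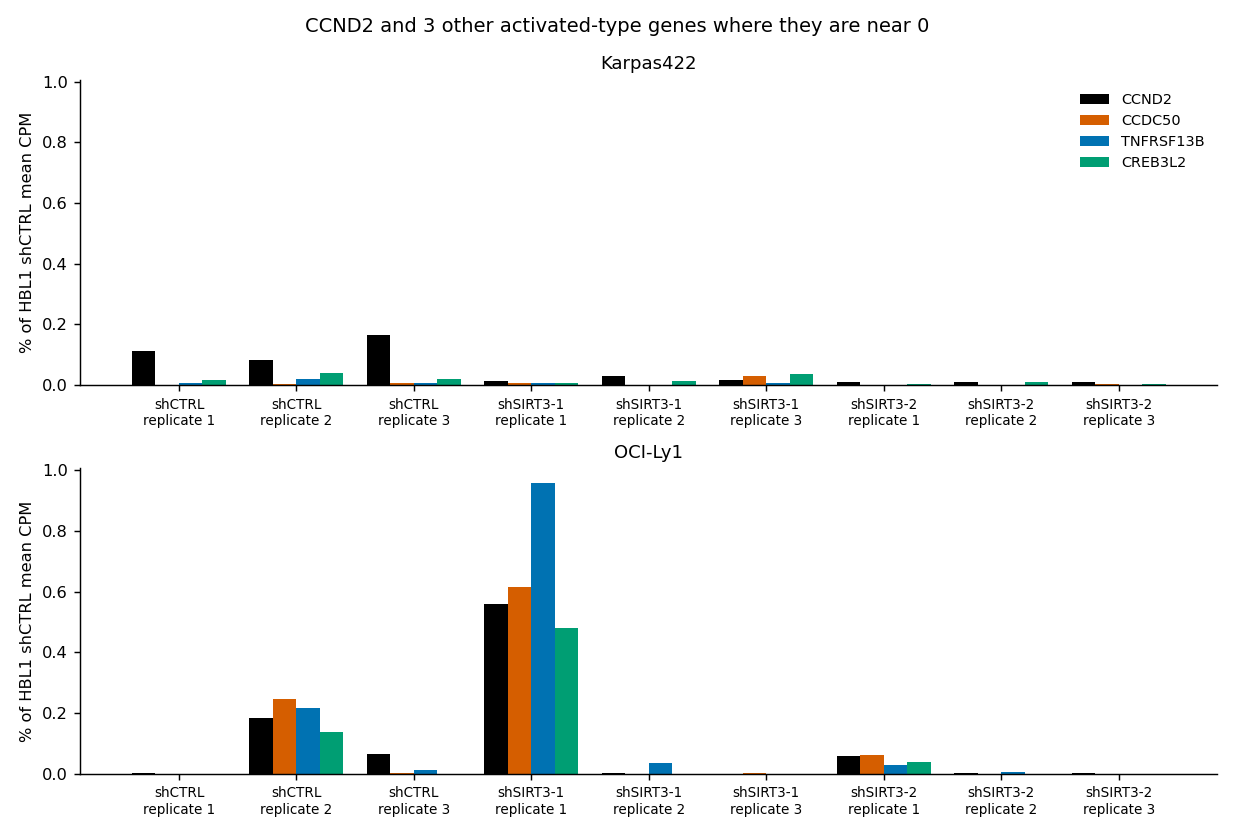
Bars give the level of CCND2 and 3 other activated-type genes in each Karpas422 library (upper panel) and OCI-Ly1 library (lower panel) as a percentage of the mean CPM of the HBL1 shCTRL libraries. In OCI-Ly1 the 4 genes reach up to 0.959% in the first shSIRT3-1 library and are also seen together in the second shCTRL library, whereas CCND2 is the highest, at 0.0640%, in the third shCTRL library. In Karpas422 CCND2 stands above the other genes in the shCTRL libraries.

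Over the 3 lines CCND2 was the only member called with shSIRT3-2 (-1.55 ± 0.56, adjusted p = 0.0315), where 13.5% of all genes were called (3.29% higher and 10.2% lower). The call was lost in 7 of 11 other settings. It did not hold without the second OCI-Ly1 shCTRL library (-1.37, adjusted p = 0.0663) or without any of 4 other libraries, or without Karpas422 (-1.11, adjusted p = 0.312) or HBL1 (-1.84, adjusted p = 0.0784). With shSIRT3-1 the value was -1.03 ± 0.56 (adjusted p = 0.151), and it became -1.56 with an adjusted p of 0.005 without the first OCI-Ly1 shSIRT3-1 library, the one with 4.09 CPM, and -1.36 (adjusted p = 0.047) without the first OCI-Ly1 shCTRL library. CCND2 was also called with shSIRT3-1 when all OCI-Ly1 libraries were left out (adjusted p = 0.00561).

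ENTPD1 (chr10:97471536-97637023, plus strand) encodes CD39, a membrane enzyme that breaks down extracellular ATP. HBL1 held 139, 126 and 153 CPM with shCTRL, 112, 111 and 78.0 CPM with shSIRT3-1, and 121, 126 and 154 CPM with shSIRT3-2. All shSIRT3-1 libraries lay below the controls, and shSIRT3-2 overlapped them. The change with shSIRT3-1 was -0.49 ± 0.16 (adjusted p = 0.0421), under the fold threshold, and -0.31 (adjusted p = 0.0622) without the third shSIRT3-1 library. In Karpas422 the levels were 7.58, 8.13 and 8.20 CPM with shCTRL, 6.32, 6.61 and 4.65 CPM with shSIRT3-1, and 7.78, 7.45 and 6.27 CPM with shSIRT3-2. The shSIRT3-1 libraries were the lower ones here too, at -0.45 ± 0.15 (adjusted p = 0.0421). OCI-Ly1 ranged from 6.63 to 9.56 CPM with overlapping groups. In the model of all lines the change was -0.36 ± 0.09 with shSIRT3-1 (adjusted p = 0.00332) and -0.08 ± 0.09 with shSIRT3-2 (adjusted p = 0.521), so that ENTPD1 was not called with either hairpin.

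FUT8 (chr14:65877310-66210839, plus strand) encodes the enzyme that adds core fucose to N-linked sugars. It rose in HBL1, from 103, 99.8 and 94.9 CPM with shCTRL to 166, 155 and 130 CPM with shSIRT3-1 and to 156, 147 and 146 CPM with shSIRT3-2. Every knockdown library exceeded every control. The rise was 0.59 ± 0.10 with each hairpin (adjusted p = 0.0028 and 0.00317), just past the fold threshold, and 3 libraries for shSIRT3-1 and 2 for shSIRT3-2 took it back under when left out, as did quantile normalization for shSIRT3-2 (0.54). Karpas422 showed the same order, with 14.8, 12.999 and 15.7 CPM with shCTRL, 18.6, 18.8 and 20.7 CPM with shSIRT3-1, and 19.3, 20.7 and 22.7 CPM with shSIRT3-2. There the knockdown libraries again exceeded all controls, and the changes of 0.42 ± 0.10 (adjusted p = 0.0133) and 0.53 ± 0.10 (adjusted p = 0.00518) lay under the fold threshold. OCI-Ly1 did not follow, with 27.2, 27.3 and 25.8 CPM with shCTRL, 26.8, 22.0 and 26.2 CPM with shSIRT3-1, and 23.9, 22.0 and 21.7 CPM with shSIRT3-2. The shSIRT3-2 libraries were below the controls there, at -0.25 ± 0.10 (adjusted p = 0.141). The difference in response between the lines had an adjusted p of 0.000391.

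**Figure D4:**
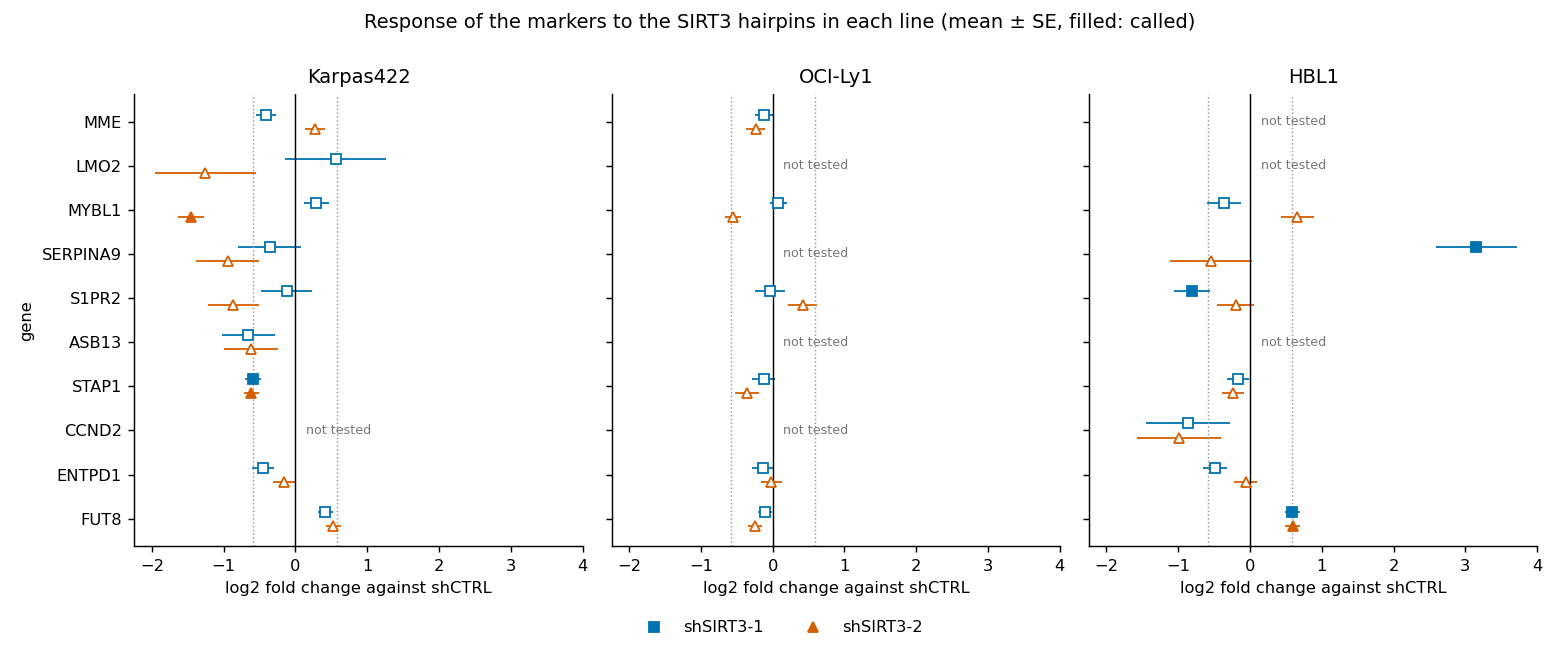
Log2 fold changes of CPM + 0.1 against shCTRL (points, with SE bars, 3 libraries a group) are drawn for each member, line and hairpin, with dotted lines at a fold of 1.5 either way and filled points where a change was called. MYBL1 moved apart from the control in opposite directions in Karpas422 and HBL1 with shSIRT3-2, and SERPINA9 in HBL1 had the widest change, 3.15 with shSIRT3-1.

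Counted by line, the members gave few calls against shCTRL. In Karpas422 1 of 9 members tested was called with shSIRT3-1 (16% of all genes tested) and 2 of 9 with shSIRT3-2 (15%). OCI-Ly1 gave 0 of 6 with each hairpin, where 4.5% and 6.41% of all genes were called with limma. At an unadjusted p under 0.05 the OCI-Ly1 counts were 0 with shSIRT3-1 and 2 with shSIRT3-2 (MYBL1 and FUT8), and edgeR called 0 with each. HBL1 gave 3 of 7 with shSIRT3-1 (27.7%) and 1 of 7 with shSIRT3-2 (23.5%). Without the third HBL1 shSIRT3-1 library these counts were 1 and 3, beside 26.9% and 28.6% of all genes. SERPINA9 was then no longer tested. Groups of 3 that did not overlap were found for 4 of 9 members with each hairpin in Karpas422 (51.2% and 47% of all genes), for 0 and 2 of 6 in OCI-Ly1 (30.9% and 33.3%), and for 4 of 7 with each hairpin in HBL1 (50.9% and 60.9%). These shares lay near or below those of all genes. A member tested in a line only because of the group where it was high had to differ there, as SERPINA9 did in HBL1.

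Over the 3 lines, 0 of the 10 members were called in the same direction with both hairpins by limma or by edgeR, beside 5.09% of all genes, and 2 (STAP1 and FUT8) moved the same way at an unadjusted p under 0.05 with each. The hairpins were also set against each other, where 11.3% of all genes were called, and the members called were SERPINA9, lower with shSIRT3-2 by 1.91 ± 0.40 (adjusted p = 0.000847), and LMO2. The response differed between lines for 6 of 10 members, beside 41.8% of all genes. With the hairpins compared within each line, 2 of 9 members were called in Karpas422 (11.5%), 1 of 6 in OCI-Ly1 (4.68%) and 2 of 7 in HBL1 (27.9%), a comparison added after the values were seen.

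Over the 3 lines the 10 other germinal-centre genes gave 2 rises with shSIRT3-1 and 1 rise and 3 falls with shSIRT3-2, where 3.92% of all genes rose and 9.09% fell with shSIRT3-1 and 3.29% rose and 10.2% fell with shSIRT3-2. Their changes had median log2 fold changes of -0.33 and -0.30 beside -0.05 and -0.03 for all genes. By limma and by edgeR, 0 genes of either list were called in the same direction with both hairpins, and 3 of each list moved the same way at an unadjusted p under 0.05. ELL3, an elongation factor of RNA polymerase II, was called in opposite directions, at 0.65 ± 0.24 (adjusted p = 0.0365) with shSIRT3-1 and -0.78 ± 0.24 (adjusted p = 0.0133) with shSIRT3-2. BCL6, the repressor that sustains the germinal-centre program, fell by 0.87 ± 0.11 with shSIRT3-2 (adjusted p = 1.33e-06). With shSIRT3-1 its change was -0.40 ± 0.11 (adjusted p = 0.00447), under the fold threshold. The response of BCL6 differed between lines in the F test (adjusted p = 0.0253), and shSIRT3-2 was not called in OCI-Ly1 (-0.52 ± 0.17, adjusted p = 0.0782). Of the 15 other activated-type genes, limma called 0 over the 3 lines with either hairpin, with 6 and 4 at an unadjusted p under 0.05, and edgeR called 1 (CYB5R2) with shSIRT3-1 and 0 with shSIRT3-2. In HBL1 taken alone 4 of the 15 fell with shSIRT3-1 and 5 with shSIRT3-2, and 0 rose. There 27.7% and 23.5% of all genes were called in either direction, so the number of calls lay near the background. The share of all genes that fell was not counted in HBL1, so the direction of these calls has no background beside it. The counts were also 4 and 5 without the third shSIRT3-1 library, beside 26.9% and 28.6% of all genes called in either direction. IRF4, a master regulator of the activated type, was among them at -1.498 ± 0.32 (adjusted p = 0.00687) and -1.08 ± 0.32 (adjusted p = 0.0302), as was BLNK, an adaptor of the B-cell receptor, at -1.32 ± 0.22 (adjusted p = 0.00235) and -1.11 ± 0.22 (adjusted p = 0.00581). Without the third shSIRT3-1 library the shSIRT3-1 values were -1.06 for IRF4 and -1.07 for BLNK, and both were still called. These 5 genes were named after their values were seen.

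Some members share exon sequence with other genes in GENCODE annotation of hg19, and whether reads were counted by strand was not given in the sources used here, so reads from such partners cannot be told apart. S1PR2 shares 83 bases with DNMT1, which was at 60.3 to 417 CPM. The antisense partners CCND2-AS1, ENTPD1-AS1 and FUT8-AS1 reached at most 0.909, 1.21 and 3.89 CPM in HBL1.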

How the data were processed

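RNA was measured in 27 libraries of 9 groups, 3 for each line and hairpin. Per the methods of the study, total RNA was sequenced as paired ends after random priming, aligned to hg19 with STAR and annotated to RefSeq with Rsubread, whose versions are not given in the sources used here. The authors deposited CPM under the name FPKM, since in each library every value is a whole multiple of 1 step at any gene length (tolerance 0.01 of a read). In 2 OCI-Ly1 libraries that step (0.00995 and 0.0099 CPM) lies near 0.01, so its size alone does not tell it from rounding. In both, 100% of the values are whole multiples of it. Genes listed sum to 40.3% to 45.6% of the total divided by.

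Values were compared as log2(CPM + 0.1) with limma 3.58.1 (R 4.3.3), with the variance following the mean, for genes at 1 CPM or more in at least 3 of the libraries fitted. The model over all lines had terms for line and hairpin, each line was also fitted alone, and differences in response were tested on the interaction terms. Comparisons that share shCTRL libraries are not independent. Adjusted p-values cover all genes tested. The design had been written for the values as deposited, without naming a unit, and was kept. edgeR 4.0.16 was used on the recovered reads only as an alternative. The models were tested on simulated data, which held no effect of replicate number. The interaction test recovered 53% of genes changed 2-fold in HBL1 with 1 hairpin, and 100% at 4-fold. The other simulated tests recovered 93.5% to 100% of genes changed 2-fold. Exon lengths and positions came from the GENCODE annotation of hg19. Tables were handled in Python 3.11.15 (numpy 2.4.6) and plotted in matplotlib 3.10.9.

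Named genes were the 10 members, SIRT3 and genes of the wider lists called with both hairpins in the same direction, which none met, as none met the condition for reporting genes with a like pattern. The members and lists were chosen with earlier results of these data known. The study describes knockdown in replicates. Whether libraries of a group came from separate transductions or cultures is not given in the sources used here, so p-values measure the spread between these libraries, which may be technical. Deviations of libraries with the same replicate number correlated over genes in OCI-Ly1 (from 0.108 up to 0.564) and HBL1 (from 0.217 up to 0.498), which were taken as paired from the data alone. In Karpas422 the lowest was 0.0144 and the highest 0.492. Of the deposited columns, 0 were left unused.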

Additional observations from a re-analysis of the deposited data

Results flagged for a closer look

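The response to the hairpins differed between the 3 lines, in an F test on the interaction of line and hairpin, for 6 of the 10 members. The adjusted p was 1.67e-06 for MYBL1, which fell with shSIRT3-2 in Karpas422 and was highest with shSIRT3-2 in HBL1. It was 0.000391 for FUT8, for which all knockdown libraries lay above the controls in HBL1 and Karpas422 but not in OCI-Ly1, and 0.0025 for SERPINA9, which rose with shSIRT3-1 in HBL1. These calls held in 8 of 8 other settings and without each of the 27 libraries.

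The other members gave adjusted p-values nearer the threshold. MME had 0.0281, S1PR2 had 0.035 and ASB13 had 0.0424. The largest value on leaving out a library was 0.0623 for MME, 0.0825 for S1PR2 and 0.101 for ASB13, and the number of the 27 libraries whose removal ended the call was 4, 9 and 14. Of 8 other settings, 2 ended the call of S1PR2 and 3 that of ASB13. Of all genes, 41.8% passed this test. In HBL1, MME had at most 36 reads and ASB13 at most 18 reads a library.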

How the results depend on the processing

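Of 3131 values of single genes under other settings, 3013 kept their side of the threshold, 84 lost their call, 34 gained one and 0 called values changed sign. The number of members called moved by over 1.5 times, or to or from 0, as follows, and the cause was not tested. A fit without 1 library leaves 2 in its group and pools their spread with the other groups. Over the 3 lines, shSIRT3-1 (main count 1) gave 0 with a pseudocount of 1 and without HBL1, and 2 without OCI-Ly1. For shSIRT3-2 (main count 1) the count was 0 with a pseudocount of 1 or 0.01, no filter, quantile normalization, edgeR, and without Karpas422. The hairpins against each other (main count 2) gave 1 without Karpas422. In Karpas422, shSIRT3-1 gave 0 with a pseudocount of 1, quantile normalization, median-ratio scaling and edgeR, and 2 with no filter. OCI-Ly1 shSIRT3-1 gave 1 with no filter. HBL1 shSIRT3-2 gave 2 with median-ratio scaling, no variance trend, edgeR and group means of all 27 libraries. For the hairpins against each other within lines, OCI-Ly1 gave 2 with no filter, and HBL1 gave 1 with a pseudocount of 1 and 4 with no filter or group means of all 27 libraries. Smaller moves were S1PR2, lost with shSIRT3-1 in HBL1 with a pseudocount of 1, no filter, quantile normalization and edgeR and gained with shSIRT3-2 in Karpas422 with group means of all 27 libraries. No filter added LMO2 and ASB13 with shSIRT3-1 in HBL1 and CCND2 with shSIRT3-2 in Karpas422. MYBL1 replaced FUT8 with shSIRT3-2 in HBL1 under quantile normalization, and replaced LMO2 between the hairpins over the 3 lines with a pseudocount of 1 and without HBL1. Between the hairpins in HBL1, quantile normalization added S1PR2. Between lines, SERPINA9 and ASB13 (pseudocount of 1), SERPINA9 (quantile normalization) and MME (pseudocount of 0.01) were lost.

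With the replicate block, Karpas422 gave 4 members with shSIRT3-2 and 4 between the hairpins, LMO2 and S1PR2 being added to each, and the interaction test gave 7 with LMO2 added. In Karpas422, 8 of 9 pairs of libraries with the same number correlated over 0.1 and the lowest at 0.0144, so the numbers were not taken as pairs there. Their mean correlation of 0.291 was however close to the 0.271 of OCI-Ly1, so pairing in Karpas422 is not settled. In OCI-Ly1 and HBL1, where the numbers were taken as paired, the block changed no call of a member.

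Leaving out 1 library at a time gave 1 to 2 members for shSIRT3-1, 0 to 1 for shSIRT3-2 and 2 to 2 between them over the 3 lines, and 3 to 7 in the interaction test. In Karpas422 the ranges were 0 to 1 and 1 to 3, in OCI-Ly1 0 to 0 and 0 to 2, and in HBL1 0 to 3 and 0 to 3 for shSIRT3-1 and shSIRT3-2. Between hairpins they were 1 to 3, 0 to 1 and 1 to 2 in these lines. Between lines they were 7 to 9, 7 to 9 and 4 to 7, the lowest counts arising without a Karpas422 library, when SERPINA9 and ASB13 no longer passed the filter.

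Quantile normalization moved the median of all genes from -0.11 to 0.04 with shSIRT3-1 in HBL1, from -0.08 to 0.02 in Karpas422, and from 0.05 to -0.07 between HBL1 and OCI-Ly1. The count of all genes called fell by over 1.5 times with a pseudocount of 1 over the 3 lines (1701 to 1054, 1760 to 1036 and 1480 to 862) and without HBL1 (1701 to 1073 and 1480 to 862), rose in OCI-Ly1 with group means of all 27 libraries (504 to 790 and 718 to 1082), and ranged there from 37 to 1133 for shSIRT3-1 and from 118 to 1321 for shSIRT3-2 on leaving out a library. Counts of 1 to 4 reads for LMO2 and 0 to 25 for SERPINA9 in OCI-Ly1, and of 0 to 36 for MME and 0 to 18 for ASB13 in HBL1, limit what these libraries can show.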
